A study of Homo sapiens with 6 samples.

Results

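Large H3K27me3 domains without H3K4me3 are long stretches of the genome that carry the Polycomb mark and hold no peak of the promoter mark. They were built from the longer of the study's H3K27me3 peak lists by joining peaks across gaps of up to 3000 bp on chromosomes 1 to 22 and X. Domains of at least 10000 bp that overlapped no H3K4me3 peak of either condition were kept, so the domains were selected on peak length and peak overlap. This left 2537 of 21719 joined domains, with a summed length of 69.0 Mb. Another 1248 domains reached the same length but overlapped an H3K4me3 peak, and 16286 shorter domains overlapped none. Length, peak content and absence of H3K4me3 chose the domains, so these values are given as a description.

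The libraries came from D283, an established line of Group 3 medulloblastoma, a childhood tumour of the cerebellum, grown as tumorspheres. In the OTX2low condition the homeobox factor OTX2 was silenced with 30 nM siRNA, and OTX2high cells received a scramble siRNA. Both conditions share the cell line and the culture form, and each mark was profiled by ChIP-seq in 1 library per condition, so no difference between conditions has a replicate check. IgG libraries served as controls, and their labels did not settle which condition each belongs to.

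H3K27me3 is written by the EZH2 subunit of Polycomb repressive complex 2 and read by CBX proteins of Polycomb repressive complex 1, which compacts the chromatin. H3K4me3 is placed at the starts of active genes and at CpG islands. In stem and progenitor cells the marks often share the CpG-island promoters of developmental regulators, a state called bivalent. Broad H3K27me3 without H3K4me3 is known from silent, tissue-restricted gene clusters and from stretches between genes.

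The label of each H3K27me3 list and the name in its header disagreed. The shorter list, with 100283 peaks, is labelled OTX2low and its header names OTX2high. The longer list, with 156508 peaks, is labelled OTX2high and its header names OTX2low. The control of the shorter list had 85840108 tags, as had that of the H3K4me3 list of OTX2high, and the control of the longer list had 55079542 tags, as had that of the H3K4me3 list of OTX2low. These control depths go with the header names. The lists are called the shorter and the longer list here, and no direction between conditions was read from them. The longer list came from 40271458 tags with a fragment estimate of 169 bp, and the shorter list from 33885628 tags with 78 bp. Its median peak was 139 bp wide, against 332 bp in the longer list. The H3K4me3 libraries held 20914582 tags in OTX2low and 33137731 tags in OTX2high. OTX2, CRX and NRL, factors of the photoreceptor program typical of Group 3 tumours, had H3K4me3 at their promoters and touched no large domain without it. The same held for the neuronal genes DCX, TUBB3 and NEUROD1. Of the markers of other cell types, MBP of oligodendrocytes and CD3E of T cells touched the domains.

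Promoter sequences show the kinds of gene the domains cover, and were chosen after their values were seen. Each is the 300 base RefSeq window of GRCh38.p14, from 250 bases before to 50 after a listed gene start, given 5′ to 3′ on the gene's strand. Where a gene has several windows in the domains, the most upstream is shown. CG dinucleotides are in capitals, and so is each TATAAA on either strand, which reads TTTATA where it lies on the other one. The first set holds CpG-rich promoters of developmental regulators. TBXT (brachyury), the notochord and mesoderm factor, lies at chr6:166168606-166168905 on the minus strand. NKX2-1, a factor of the ventral forebrain, lung and thyroid, lies at chr14:36520183-36520482 on the minus strand. FGF3, a fibroblast growth factor of inner ear development, lies at chr11:69819367-69819666 on the minus strand.
TBXT: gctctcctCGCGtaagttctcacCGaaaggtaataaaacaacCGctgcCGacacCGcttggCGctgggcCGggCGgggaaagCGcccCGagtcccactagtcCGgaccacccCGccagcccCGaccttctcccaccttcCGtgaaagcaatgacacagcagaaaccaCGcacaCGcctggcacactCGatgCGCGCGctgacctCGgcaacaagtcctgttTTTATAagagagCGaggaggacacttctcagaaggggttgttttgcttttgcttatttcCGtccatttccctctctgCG
NKX2-1: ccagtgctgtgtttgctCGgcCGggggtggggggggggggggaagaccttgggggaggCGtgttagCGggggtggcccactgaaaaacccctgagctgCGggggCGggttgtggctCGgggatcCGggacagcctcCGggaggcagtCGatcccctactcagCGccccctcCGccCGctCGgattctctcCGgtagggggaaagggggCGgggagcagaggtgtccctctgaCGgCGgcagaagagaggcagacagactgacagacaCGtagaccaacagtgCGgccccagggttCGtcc
FGF3: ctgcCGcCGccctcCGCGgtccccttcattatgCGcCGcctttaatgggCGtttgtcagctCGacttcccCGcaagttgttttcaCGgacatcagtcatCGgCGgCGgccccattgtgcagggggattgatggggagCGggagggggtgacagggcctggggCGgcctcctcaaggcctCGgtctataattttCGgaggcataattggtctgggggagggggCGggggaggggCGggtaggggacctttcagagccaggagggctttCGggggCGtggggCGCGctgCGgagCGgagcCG

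The second set holds CpG-poor promoters of genes restricted to certain tissues or cell types. CD3D, a chain of the T cell receptor complex, lies at chr11:118342656-118342955 on the minus strand. HLA-DPB1, an antigen-presenting chain of HLA class II, lies at chr6:33075740-33076039 on the plus strand. OR7C1, an olfactory receptor, lies at chr19:14835136-14835435 on the minus strand, a window also listed for OR7A5. KRT40, a hair keratin, lies at chr17:40987086-40987385 on the minus strand.
CD3D: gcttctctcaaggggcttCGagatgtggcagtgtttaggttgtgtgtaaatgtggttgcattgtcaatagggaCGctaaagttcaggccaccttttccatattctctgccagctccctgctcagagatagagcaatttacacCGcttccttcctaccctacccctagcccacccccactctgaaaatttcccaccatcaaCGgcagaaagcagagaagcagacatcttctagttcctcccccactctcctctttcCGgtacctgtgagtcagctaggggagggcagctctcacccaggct
HLA-DPB1: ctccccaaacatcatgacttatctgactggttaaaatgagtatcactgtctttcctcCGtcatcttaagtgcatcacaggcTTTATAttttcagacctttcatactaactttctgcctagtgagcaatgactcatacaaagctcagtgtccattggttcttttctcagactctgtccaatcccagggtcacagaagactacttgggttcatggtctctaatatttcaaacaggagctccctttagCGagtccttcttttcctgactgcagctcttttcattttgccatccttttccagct
OR7C1: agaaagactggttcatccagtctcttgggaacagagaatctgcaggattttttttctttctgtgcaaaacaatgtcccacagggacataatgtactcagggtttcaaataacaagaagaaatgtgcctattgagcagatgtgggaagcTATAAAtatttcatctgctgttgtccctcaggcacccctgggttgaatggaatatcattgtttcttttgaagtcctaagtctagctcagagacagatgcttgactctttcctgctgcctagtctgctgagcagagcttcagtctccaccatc
KRT40: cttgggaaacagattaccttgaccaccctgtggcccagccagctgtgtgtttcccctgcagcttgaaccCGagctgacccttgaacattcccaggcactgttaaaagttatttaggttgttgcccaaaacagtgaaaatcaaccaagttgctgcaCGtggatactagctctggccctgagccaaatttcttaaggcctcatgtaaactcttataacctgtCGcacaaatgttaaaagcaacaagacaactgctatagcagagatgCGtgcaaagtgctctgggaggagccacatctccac

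TBXT, NKX2-1 and FGF3 held 25, 21 and 26 CG dinucleotides in these windows. CD3D held 5, KRT40 held 4, HLA-DPB1 held 2 and OR7C1 held 0. TATAAA was found in the windows of TBXT, HLA-DPB1 and OR7C1. All 7 windows overlapped a peak of the longer list, and those of TBXT, NKX2-1, CD3D and KRT40 also overlapped a peak of the shorter list. The domain around NKX2-1 was 101791 bp long, with 13.3% of its bases covered by the shorter list and 64.1% by the longer list. The TBXT domain was 29500 bp long, with 11.2% covered by the shorter list and 63.4% by the longer list. The CD3D domain was 18913 bp long, with 7.86% covered by the shorter list and 73.9% by the longer list. Coverage by the longer list ran from 63.4% to 84.4% in the domains of the CpG-rich promoters and from 64.4% to 75.6% in those of the CpG-poor ones, so the ranges overlapped.

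The domains had a median length of 19065 bp, with quartiles of 13433 and 30901 bp and a longest of 308140 bp. Large domains with H3K4me3 were longer, at a median of 32645.5 bp and a maximum of 657578 bp. Lengths of 50 kb or more were reached by 276 domains without H3K4me3 (10.9%) and by 438 with it (35.1%). Domains without H3K4me3 made up 79.8% of all large domains between 10 and 15 kb, and 21.4% of those of 100 kb and over. Peaks of the longer list covered less of them, although there were 8.97 peaks per 10 kb, against 7.32 with H3K4me3. The longer list covered a median of 41.4% of a domain without H3K4me3 and 60.3% of one with it. The domains just inside the length limit measured 10017, 10025 and 10032 bp, the middle one over the cardiac light chain gene MYL3 and the last over the pregnancy glycoprotein gene PSG5. Those just outside measured 9999, 9999 and 9991 bp.

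**Figure D1:**
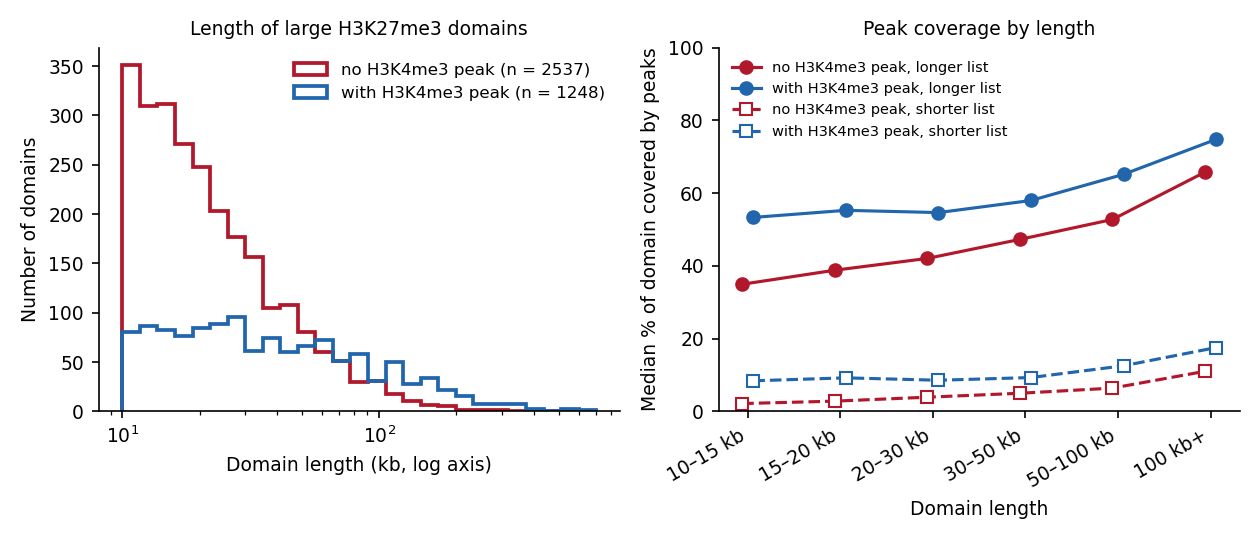
Left, number of large H3K27me3 domains by length (kb, log axis), without (red) and with (blue) an H3K4me3 peak. Right, median percent of a domain covered by peaks of the longer list (filled circles) and the shorter list (open squares) by domain length; the domains without H3K4me3 are less covered than those with it in each length class, from 35.0% against 53.3% at 10 to 15 kb to 65.8% against 74.8% at 100 kb and over.

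The shorter list, from the H3K27me3 library of the other condition, was not used to choose the domains. It overlapped 2344 of the 2537 domains without H3K4me3, or 92.4% (exact 95% interval 91.3 to 93.4%). Its peaks covered 7.11% of all bases in the domains and 18.4% of those in large domains with H3K4me3. It overlapped 98.8% of large domains with H3K4me3 (98.0 to 99.3%) and 16.4% of the shorter domains without it (15.9 to 17.0%). These intervals cover counting error only. Those shorter domains had a median length of 383 bp, against 19065 bp, and an overlap of 1 bp was enough. The shares of 92.4% and 16.4% therefore do not compare domains of equal length. By bases, the shorter list covered less of the shorter domains than the 7.11% of the large ones without H3K4me3. Overlap was wide but thin: the shorter list covered a median of 3.54% of a domain without H3K4me3 and 11.2% of one with it. At least 10% of the length was covered in 344 domains without H3K4me3 (13.6%) and in 682 with it (54.6%). The difference held within length classes, from 2.16% against 8.42% at 10 to 15 kb to 11.0% against 17.6% at 100 kb and over. The strongest peak of a domain without H3K4me3 reached a median of 5.56-fold enrichment in the shorter list and 6.16-fold in the longer list. In large domains with H3K4me3 it reached 7.07-fold in the shorter list and 8.81-fold in the longer list. These folds are the authors' own peak values. The 193 domains that the shorter list missed had a median length of 12352 bp, and 184 of them were under 20 kb.

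The nearest H3K4me3 peak lay a median of 46948 bp away, with quartiles of 15846 and 105724 bp. It was within 5 kb for 239 domains (9.42%) and over 100 kb away for 680 (26.8%). The next large domain, with or without H3K4me3, was a median of 7597 bp away. It lay within 50 kb for 2193 domains (86.4%), and was without H3K4me3 for 1634 of them and with it for 559. Joining domains across gaps of up to 100 kb gave 896 loci, of which 449 held several domains and 2090 of the 2537 in all. The locus with the most domains, 28 over 1306616 bp on chromosome 10 (128156094 to 129462709), held no protein-coding gene in its domains. A locus on chromosome 1 (29359514 to 30672713) held 26 domains and again no protein-coding gene in them. Another on chromosome 5 (2249540 to 3546113) also held 26 and none.

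Most of the domains covered no listed promoter window of a protein-coding gene. Starts of other genes were not counted. Of the 2537, 1292 (50.9%) touched no protein-coding gene, against 285 (22.8%) of the large domains with H3K4me3. A listed promoter window lay in 361 domains (14.2%), against 661 (53.0%) of those with H3K4me3. No RefSeq gene of any type was touched by 588 (23.2%), against 61 (4.89%). The domains touched 1030 of 19817 protein-coding genes (5.20%), of which 369 lay wholly inside 1 domain and 633 had at least 50% of their body in domains. Of the 1030 genes, 711 (69.0%) had no H3K4me3 peak anywhere in the body, against 5103 (25.8%) of all protein-coding genes, and 319 (31.0%) had one outside the domain. The absence of H3K4me3 in the domains was part of their choice.

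The 8 genes with the most bases in the domains ran from KAZN to WDFY4. KAZN, which encodes the desmosome-associated protein kazrin, had 583366 bp in them, or 47.6% of its body. AFF3, a transcription regulator of the AF4 family, had 460291 bp (77.1%). KSR2, a scaffold of Ras signaling, had 416562 bp (80.7%), and ATP8A2, a phospholipid flippase, had 405997 bp (62.1%). DOCK2, a Rac activator of leukocytes, had 385418 bp (86.4%), and RYR3, a calcium release channel, had 310574 bp (55.9%). ADARB2, of the RNA-editing ADAR family, had 292434 bp (52.2%), and WDFY4, needed for antigen cross-presentation by mouse dendritic cells, had 261073 bp (87.6%). Genes with fewer bases in the domains varied widely in the share of the body covered. ADGRD1, an adhesion G protein-coupled receptor, had 184176 bp (98.2%), and CACNA1D, a calcium channel subunit, had 191955 bp (60.2%). The neuronal adhesion genes CSMD2, OPCML and NTM had 225824 bp (34.6%), 221943 bp (19.9%) and 205266 bp (21.2%). The neuronal splicing regulator RBFOX1 had 208973 bp and 8.45% of its body.

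The longest domain, 308140 bp on chromosome 8 (141438216 to 141746355), touched C8orf90 and held 332 peaks of the shorter list and 148 of the longer list. Its coverage was 21.3% by the shorter list and 83.8% by the longer list. A domain of 217503 bp on chromosome 19 (54217474 to 54434976) held LILRB3, LILRA6, LILRB5, LILRB2, LILRA5, LILRA4 and LAIR1, inhibitory and activating receptors of leukocytes, and TTYH1. It was covered to 24.4% by the shorter list and 82.3% by the longer list. A domain of 176220 bp on chromosome 11 (69676198 to 69852417) held the growth factor genes FGF19, FGF4 and FGF3. Its coverage was 25.9% by the shorter list and 84.4% by the longer list, and its edge lay 291 bp from an H3K4me3 peak of OTX2low and 286 bp from one of OTX2high. A domain of 190592 bp over DOCK2 and INSYN2B was less covered, at 3.45% by the shorter list and 42.6% by the longer list. The remaining long domains covered CCT6B, the immunoglobulin lambda locus, AFF3, ADGRD1, LCP2 with KCNIP1 and KCNMB1, and a stretch of chromosome 10 with no protein-coding gene. Coverage among these 10 longest domains ran from 3.45% to 25.9% in the shorter list and from 42.6% to 84.4% in the longer list.

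The highest fold enrichment of a single peak of the longer list, 18.2-fold, was in a domain of 81874 bp on chromosome 5 that held the amino acid transporter genes SLC6A19 and SLC6A18 and part of TERT, the telomerase catalytic subunit. The shorter list reached 7.07-fold there. A domain over CYP4F11, a fatty acid hydroxylase gene, reached 17.2-fold in the shorter list and 16.5-fold in the longer list. A domain over TTC34 reached 22.6-fold in the shorter list and 13.7-fold in the longer list, so the lists did not rank these domains alike. Others of the 10 highest held the kallikrein protease genes KLK8 to KLK14, SIGLEC11 with SIGLEC16, the GAGE12 genes, SPACA7, and GPR32 with ACP4. The remaining ones were a stretch of the immunoglobulin heavy chain locus and the domain at C8orf90.

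Promoter windows were listed for 15811 of 19817 protein-coding genes and for 784 of the 1030 touched by the domains (76.1%), so the CpG values describe listed windows only. No window of chromosome 8 was used here, where 39 of the touched genes lie, so its domains count as without a promoter window. In 581 windows inside the domains, the median observed-over-expected CpG ratio was 0.242, and 10.5% reached 0.6, a usual limit for CpG islands. In 1166 windows inside large domains with H3K4me3 the median was 0.680, and 57.2% reached 0.6. The median over all 22131 windows was 0.738. The CpG content in the domains was close to that of the 6335 windows outside large domains without an H3K4me3 peak, at a median of 0.260 with 14.5% reaching 0.6. TATAAA on either strand was found in 25.3% of windows in the domains, 8.83% in large domains with H3K4me3, 18.2% of windows outside large domains without H3K4me3 and 9.46% of all windows. Of the windows inside the domains, 191 (32.9%) overlapped a peak of the shorter list and 480 (82.6%) one of the longer list. CpG content is linked to H3K4me3 itself: windows outside large domains with an H3K4me3 peak had a median of 0.844. The absence of H3K4me3, which chose the domains, and the low CpG content cannot be told apart here.

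**Figure D2:**
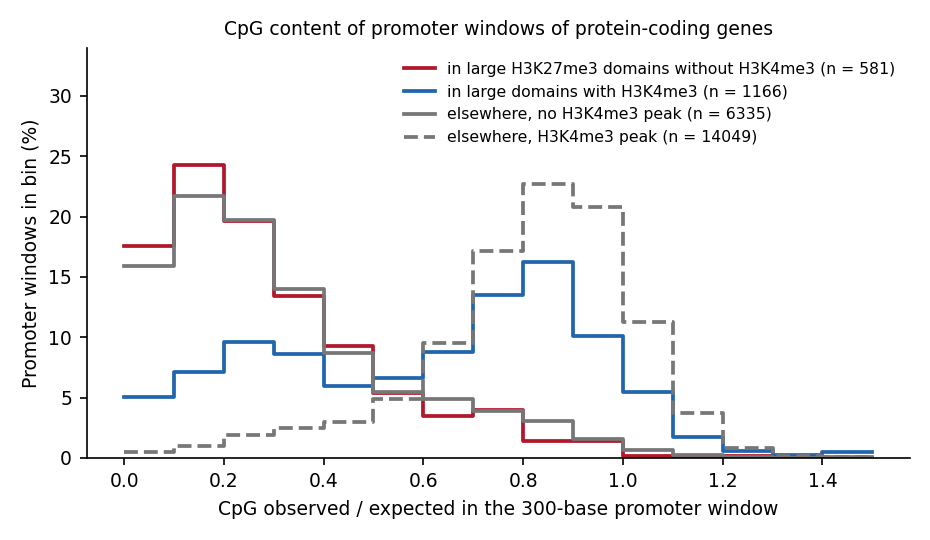
Percent of 300-base promoter windows of protein-coding genes in each bin of the observed-over-expected CpG ratio (bins of 0.1, the last one open above). Windows in large H3K27me3 domains without H3K4me3 (red, n = 581) follow those outside large domains with no H3K4me3 peak (grey, n = 6335), while windows in large domains with H3K4me3 (blue, n = 1166) have a second group of high ratios.

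Over all protein-coding genes 5.20% touched the domains and 7.34% touched large domains with H3K4me3. Among developmental regulators, HOX and other homeobox genes were below that share in the domains, while the other lists were near or above it. Of 39 HOX genes, which set position along the body axis, 0 touched the domains and 33 touched large domains with H3K4me3. Of 9 PAX genes 1 (11.1%) touched them, PAX7, a factor of neural crest and muscle stem cells, with 27.2% of its body, while 7 touched large domains with H3K4me3. PAX3, a PAX factor of neural crest and neural tube, was among those 7. Of 123 other homeobox genes 4 (3.25%) touched the domains and 54 touched domains with H3K4me3. Among them, NKX2-1 lay in the domains whole, POU2F3, a factor of tuft cells, with 55.0% of its body, and LMX1A, a factor of the roof plate and rhombic lip, with 13.96%. Of 87 SOX, FOX, GATA and TBX genes 5 (5.75%) touched the domains and 22 those with H3K4me3. TBXT, FOXA2 of endoderm and floor plate, FOXI1 of ionocytes and FOXL3 lay in them whole, and TBX5 of heart and forelimb with 32.0% of its body. Of 51 basic helix-loop-helix genes 3 (5.88%) touched the domains, TWIST2, NEUROD4 and ASCL2, and 16 those with H3K4me3. Of 70 Wnt, hedgehog, BMP and FGF ligand genes 6 (8.57%) touched the domains, among them FGF3, FGF4, FGF19 and GDF3 whole, and 15 touched domains with H3K4me3.

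Neural gene lists lay on both sides of the 5.20% of all protein-coding genes. Of 40 neuronal differentiation genes 4 (10.0%) touched the domains, STMN4, a microtubule destabilizer, with 68.8% of its body and RBFOX1, RBFOX3 and NRXN3 with under 10% each. Listed promoter windows of RBFOX1 and RBFOX3, but not of NRXN3, lay in the domains. Of 75 axon guidance genes 3 (4.00%) touched them, EPHB2, UNC5A and NTNG2, and of 95 cadherin genes 1 (1.05%), CDH4. Of 42 giant adhesion genes 4 (9.52%) touched them, CSMD2, OPCML, NTM and CSMD1. None of 51 glutamate, GABA and glycine receptor genes touched the domains. Of 97 potassium and sodium channel genes 9 (9.28%) touched them, none whole, led by SCN11A of pain-sensing neurons with 65998 bp and KCNQ1 of heart with 62805 bp. Of 35 photoreceptor genes 2 (5.71%) touched them, PDE6B, a rod phosphodiesterase subunit, with 67.8% of its body and RBP3, a retinoid carrier, with 94.2%. Of 14 glial markers 3 (21.4%) touched the domains, MBP with 58.8%, MOG with 91.7% and MAG with 23.2% of the body, all genes of the myelin sheath. None of 31 Polycomb genes, 30 cell cycle genes, 28 housekeeping genes and 19 muscle, mesenchymal and epithelial markers touched the domains. By list, large domains with H3K4me3 were touched by 6 neuronal differentiation, 6 axon guidance, 4 cadherin, 7 giant adhesion and 8 receptor genes. They were also touched by 22 channel genes, 4 glial markers and 1 photoreceptor gene. Among these lists, only photoreceptor genes touched the domains without H3K4me3 more often. The other shares above 5.20% are therefore not particular to the domains without H3K4me3.

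Some clustered gene families had more of their members in the domains. Of 149 keratin and keratin-associated genes, which build epithelial and hair filaments, 49 (32.9%) touched the domains and 45 lay in them whole, against 13 touching large domains with H3K4me3. A locus of 763788 bp on chromosome 17 (40554720 to 41318507) held 12 domains with 586359 bp over 40 of these genes and over CCR7, a homing receptor of lymphocytes. KRT23, KRT222, KRT40 and KRT20 lay whole in it. KRT73 and KRT72, hair follicle keratins of the second cluster on chromosome 12, had 85.1% and 58.0% of their bodies in domains. Of 389 olfactory receptor genes 53 (13.6%) touched the domains and 37 lay in them whole, against 10 touching domains with H3K4me3. OR7C1, OR2AT4, OR4E2 and OR10H5 lay in them whole. The keratin domains had a median coverage of 15.2% by the shorter list and 66.6% by the longer list, and the olfactory receptor domains 2.60% by the shorter list and 35.0% by the longer list. These olfactory receptor medians were below those of all the domains. Of 509 ZNF zinc finger genes, also clustered, 9 (1.77%) touched the domains.

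**Figure D3:**
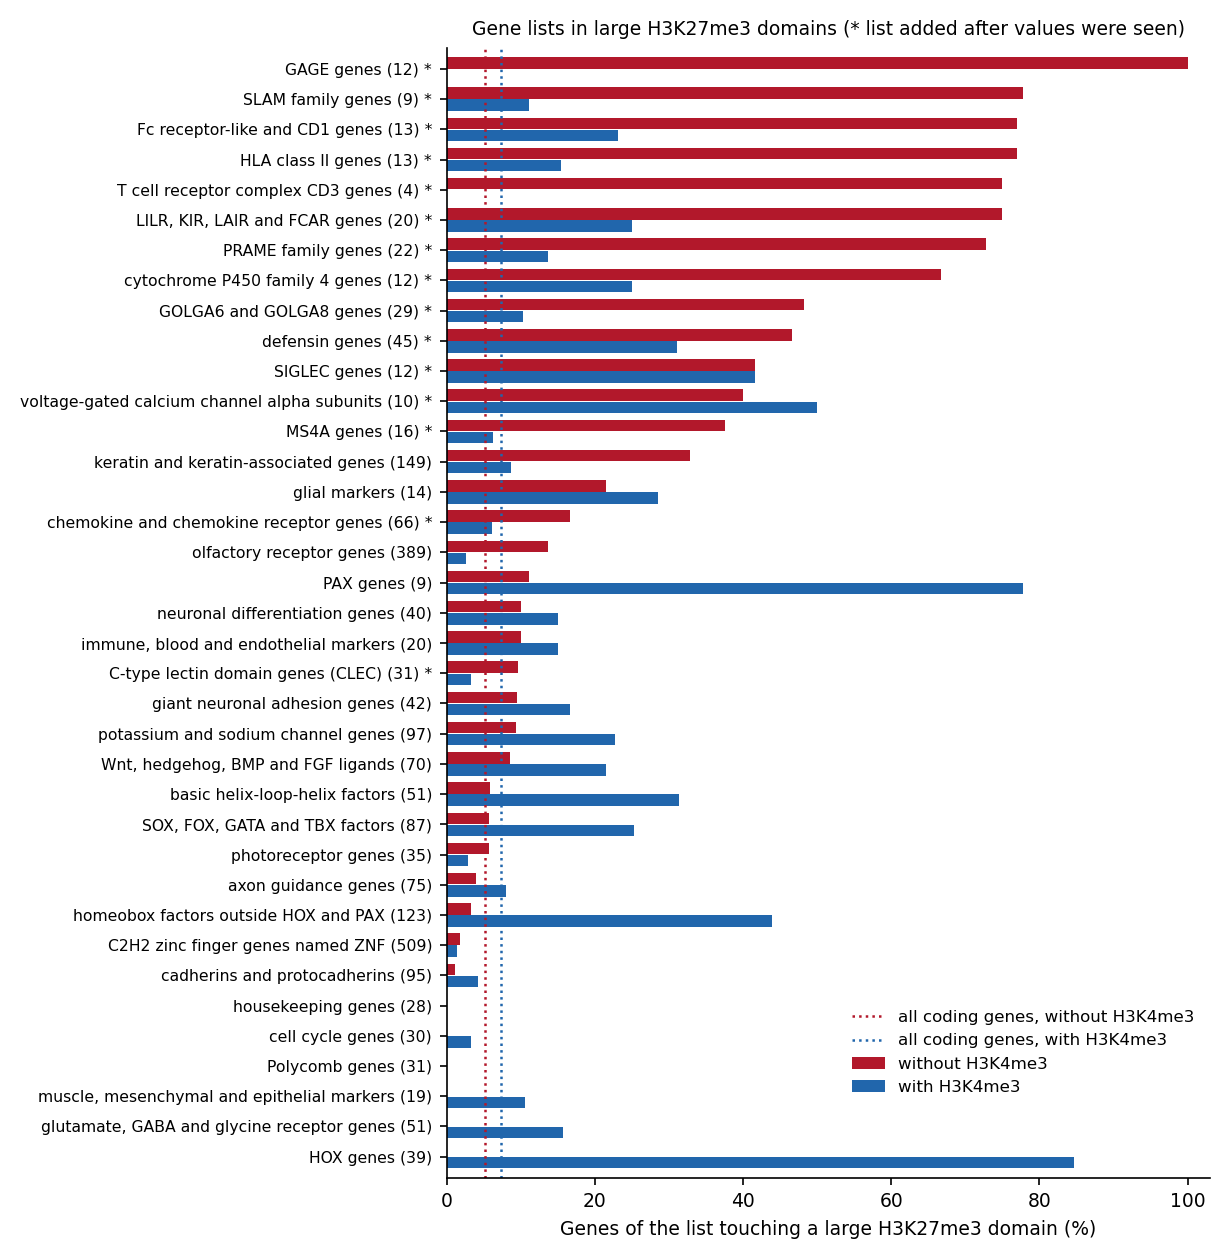
Percent of each gene list touching a large H3K27me3 domain without H3K4me3 (red) or with it (blue), with the number of genes in parentheses. Dotted lines mark all protein-coding genes (5.20% and 7.34%), and an asterisk marks lists chosen after values were seen. More HOX, PAX and other homeobox genes touch domains with H3K4me3 than without, and more keratin and olfactory receptor genes touch those without.

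Of 20 immune, blood and endothelial markers, a list not added later, 2 (10.0%) touched the domains, ITGAM and CD3E. Large domains with H3K4me3 were touched by 3 of these markers. Immune gene families were added to the lists after seeing which genes the domains held, so their counts carry no weight beyond description. Of 13 HLA class II genes 10 touched the domains and 6 lay in them whole, namely HLA-DPB1, HLA-DQB2, HLA-DQB1, HLA-DQA2, HLA-DOA and HLA-DRA. HLA-DPA1 had 98.2% and HLA-DRB1 99.7% of its body in them. Of 20 genes of the leukocyte receptor complex on chromosome 19 the domains touched 15 and held 10 whole, such as LAIR1, FCAR, KIR2DL1 and KIR3DL1. Of 13 Fc receptor-like and CD1 genes on chromosome 1 they touched 10, such as FCRL5 with 89.8% and FCRL4 with the whole body. Of 9 SLAM family genes, adhesion receptors of lymphocytes, they touched 7, with CD48, CD244 and SLAMF7 whole. Of 4 genes of the CD3 complex they touched 3, CD3E and CD3D whole and CD3G with 94.5%. Chemokine and chemokine receptor genes were touched in 11 of 66 cases, SIGLEC genes in 5 of 12 and MS4A genes in 6 of 16. C-type lectin domain (CLEC) genes were touched in 3 of 31. Large domains with H3K4me3 were touched by 5 SIGLEC, 5 leukocyte receptor, 4 chemokine or chemokine receptor, and 3 Fc receptor-like or CD1 genes. They were also touched by 2 HLA class II genes, 1 SLAM, 1 MS4A and 1 CLEC gene, and 0 genes of the CD3 complex. The shorter list overlapped each of the 8 domains with HLA class II genes and the 7 with leukocyte receptor genes. Their median lengths were 30365 and 30177 bp, and it overlapped 99.7% of all domains without H3K4me3 of 30 to 50 kb. These counts are therefore not particular to immune genes. It overlapped 9 of 10 domains with chemokine or chemokine receptor genes and 4 of 5 with MS4A genes. Its median coverage was 5.34% for HLA class II domains and 15.3% for leukocyte receptor domains, against 3.54% over all.

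**Figure D4:**
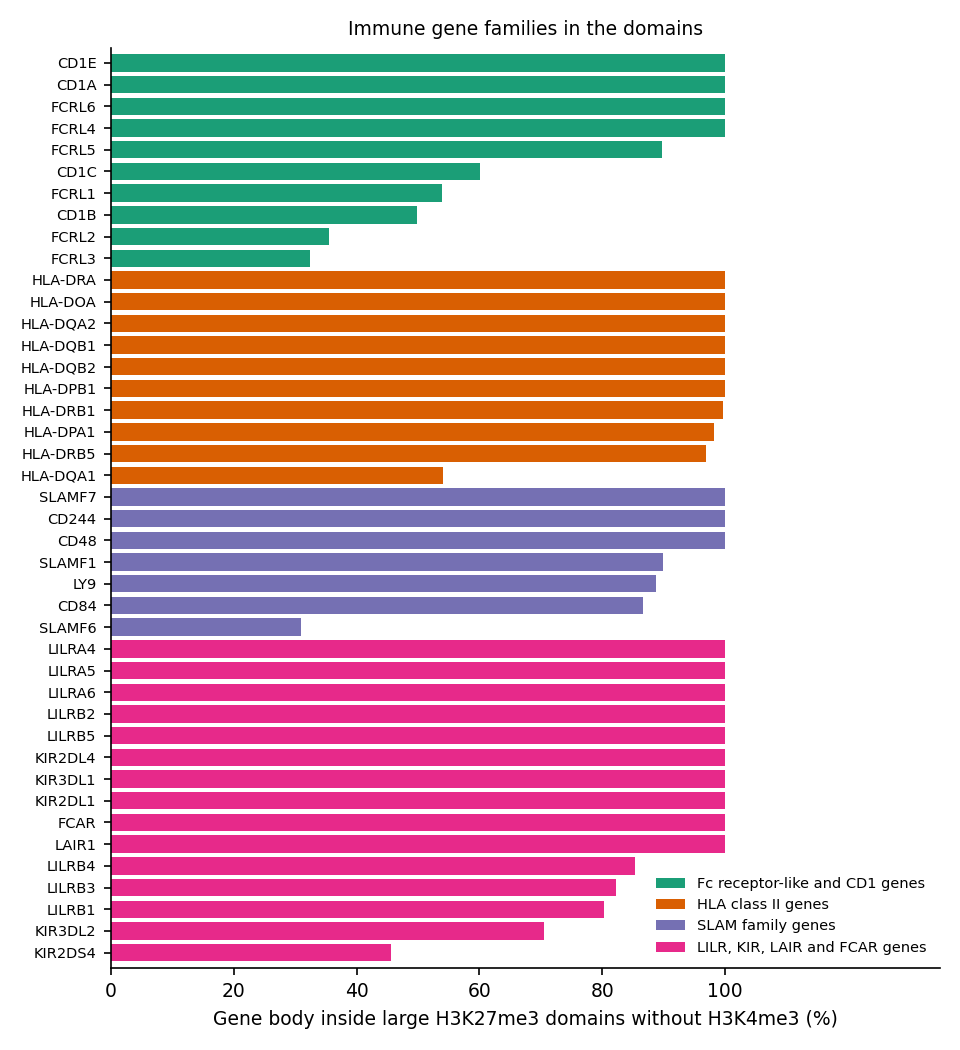
Percent of each gene's body inside large H3K27me3 domains without H3K4me3, for the genes of 4 immune families that touch them. Of the HLA class II genes, all shown but HLA-DQA1 (54.0%) have over 90% of the body inside, and the Fc receptor-like and CD1 genes range from 32.4% to 100%.

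Antigen receptor loci, whose V, D and J segments are joined by recombination in lymphocytes, were split. Of 381 segments and constant regions the domains held 116: 36 of 49 at the immunoglobulin lambda locus, 32 of 50 at kappa, 17 of 92 at the heavy chain locus and 31 of 105 at the T cell receptor alpha locus. None of 61 beta, 13 gamma and 11 delta segments lay in them. At the heavy chain locus 15 of 50 V segments lay in the domains, while all 27 D and 6 J segments lay in large domains with H3K4me3. At the alpha locus 31 of 46 V segments and 0 of 58 J segments lay in the domains. The lambda locus held 5 domains with 399.312 kb in all, with a median coverage of 10.5% by the shorter list and 71.0% by the longer list. The alpha locus held 15 domains with 507.791 kb, with a median coverage of 2.34% by the shorter list and 34.9% by the longer list.

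Families of near-identical copies also appeared, again in lists added after seeing values. The domains touched 12 of 12 GAGE genes and 16 of 22 PRAME family genes, which encode antigens of testis and tumours. They touched 21 of 45 defensin genes, 14 of 29 GOLGA6 and GOLGA8 genes and 8 of 12 genes of cytochrome P450 family 4. Reads of such copies cannot be placed with certainty, so which copy carried the mark is uncertain. The GAGE domains had a median coverage of 46.5% by the shorter list and 80.5% by the longer list. Large domains with H3K4me3 were touched by 14 defensin genes, 3 PRAME family genes, 3 GOLGA6 and GOLGA8 genes, 3 cytochrome P450 family 4 genes and 0 GAGE genes.

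Between conditions, the authors' differential table gives H3K27me3 regions from a comparison of 1 library with 1. Directions follow its header and would be turned round if the sample labels of the H3K27me3 libraries were right. The domains were built from the longer list alone, whose header names OTX2low. That choice can favour regions higher in OTX2low, so counts by direction are a description and not a result about the conditions. Regions higher in OTX2low touched 549 domains without H3K4me3 (21.6%), where 32.5% of all large domains and 8.63% of all joined domains were touched. Regions higher in OTX2high touched 30 (1.18%), where 1.64% of large and 3.35% of all joined domains were touched. Large domains with H3K4me3 were touched by regions higher in OTX2low in 54.6% and by regions higher in OTX2high in 2.56%. The share without H3K4me3 was thus below the share of all large domains in both directions. It varied with length: regions higher in OTX2low touched 9.73% of domains of 10 to 15 kb without H3K4me3, against 30.1% of those with it. At 100 kb and over they touched 90.6% of domains without H3K4me3 and 87.2% of those with it.

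In the authors' deposited table, 714 regions touched the domains, 682 of them higher in OTX2low and 32 higher in OTX2high. Their median log2 of OTX2high over OTX2low, negative where OTX2low is higher, was -0.38, and it ranged from -0.63 to 0.70. Regions touching large domains with H3K4me3 were 1211 higher in OTX2low and 31 higher in OTX2high, with a median log2 of -0.34 by the authors' deposited table. Of the 3443 regions in no large domain 422 were higher in OTX2low and 3021 higher in OTX2high, by the same authors' deposited table. Regions higher in OTX2low had a median ChIP over IgG ratio of 4.94 in OTX2low and 3.67 in OTX2high where they touched the domains, by the authors' deposited table. Where at least 50% of a region lay in a domain, 639 were higher in OTX2low and 12 higher in OTX2high.

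**Figure D5:**
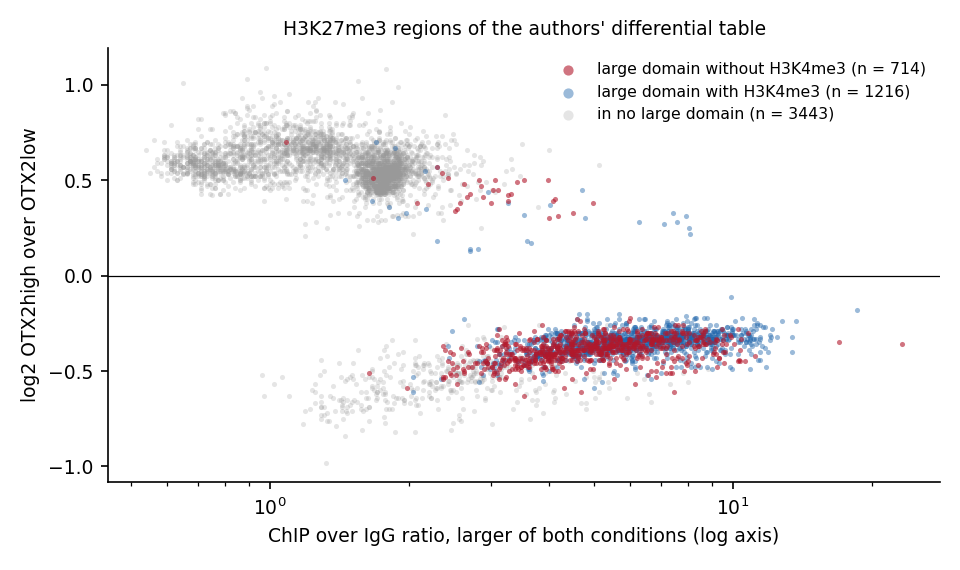
Log2 of OTX2high over OTX2low (negative: higher in OTX2low) of each H3K27me3 region in the authors' deposited table, against its ChIP over IgG ratio in the condition where that is larger (log axis). Regions touching large domains without H3K4me3 (red, n = 714) lie mostly between -0.63 and 0 with those of domains with H3K4me3 (blue); regions outside large domains (grey, n = 3443) lie mostly above 0. Regions touching both kinds of large domain are drawn red.

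At NKX2-1 the authors' deposited table lists a region of 49000 bp with 3504.6 normalized reads in OTX2low and 2763.49 in OTX2high, a log2 of -0.34 (counting interval -0.42 to -0.27). At TBXT 2 regions touched the domain, and the one over the gene had 964.7 normalized reads in OTX2low and 771.77 in OTX2high, a log2 of -0.32 (-0.46 to -0.18) in the authors' deposited table. Of 4 regions in the FGF3 domain, the one over FGF3 had 3800.22 normalized reads in OTX2low and 3015.03 in OTX2high, a log2 of -0.33 (-0.40 to -0.26), in the authors' deposited table. At HLA-DPB1, the authors' deposited table gives 1014.56 normalized reads in OTX2low and 800.35 in OTX2high, a log2 of -0.34 (-0.48 to -0.21). Of 3 regions in the OR7C1 domain, the one over the printed promoter had 1062.66 normalized reads in OTX2low and 814.07 in OTX2high, a log2 of -0.38 (-0.52 to -0.25), in the authors' deposited table. The KRT40 domain held 2 regions, neither over KRT40 itself, with a log2 of -0.32 and -0.31 in the authors' deposited table. At CD3D no differential region touched the domain. All regions touching these domains had a log2 from -0.38 to -0.28 in the authors' deposited table, beside the median of -0.38 over all 714. Intervals are exact 95% intervals from read numbers recovered only in part, and cover counting error alone.

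Among the regions touching the domains with at least 100 normalized reads, the 5 most negative values had a log2 from -0.63 to -0.59 in the authors' deposited table. A region on chromosome X (70965001 to 70975000), at a domain of 14270 bp with no protein-coding gene, had 206.41 normalized reads in OTX2low and 133.77 in OTX2high, a log2 of -0.63 in the authors' deposited table. A region at SLC9A5, a sodium-proton exchanger gene, had 304.37 normalized reads in OTX2low and 198.94 in OTX2high, a log2 of -0.61 in the authors' deposited table. A region of the secretory granule gene PTPRN2 also had -0.61 in the authors' deposited table, with 10.6% of it in the domain. The other 2, both at -0.59 in the authors' deposited table, lay at a domain of 30214 bp over TEKT1, a gene of cilia and flagella, and at one of 11561 bp on chromosome 3 with no protein-coding gene. The highest value among regions touching the domains, 0.70 in the authors' deposited table, belonged to a region at RNF43 and SUPT4H1 with 117.2 normalized reads in OTX2low and 189.8 in OTX2high, of which 2.2% lay in the domain. A region at CCDC60, with 0.54 in the authors' deposited table, had 21.4% of its length in the domain. The 5 regions with the highest values had at most 21.4% of their length in the domains. Of the 5 most negative ones, 10.6% (PTPRN2), 11.9% (TEKT1), 50.5% (chromosome X), 52.5% (chromosome 3) and 96.5% (SLC9A5) lay in the domains.

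The authors' hotspot table lists 60 clusters of H3K27me3 differential regions, of which 19 touched the domains. They touched 34 domains (1.34%), a lower share than the 3.53% of large domains with H3K4me3. In 17 of the 19 clusters all regions were higher in OTX2low, in 1 all were higher in OTX2high and 1 was mixed. The directions of all 60 clusters were not counted, so this split has no background share. Of the 714 regions touching the domains, 682 were higher in OTX2low, so it is a description only. A cluster of 11 regions on chromosome 22 (49353001 to 49738000) touched 6 domains, and another of 7 (22767001 to 22952000) lay over the immunoglobulin lambda locus. Their adjusted p-values in the authors' diffReps hotspot search were 0.0279 and 0.0788.

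H3K4me3 differential regions touched few of the domains, which hold no H3K4me3 peak by choice. Regions higher in OTX2low touched 158 (6.23%), where 12.6% of all large domains and 4.01% of all joined domains were touched. Regions higher in OTX2high touched 65 (2.56%), where 6.18% of large and 2.14% of all joined domains were touched. These regions were weak. The median of the larger library was 15.04 normalized reads over 232 regions, against 78.18 over all 21652 regions of the authors' deposited table, and 167 of the 232 stayed under 20. The 2 regions with 50 or more were at domain edges. In the authors' deposited table, the one at RNF43 and SUPT4H1 had 574.13 normalized reads in OTX2low and 734.7 in OTX2high. The other, on chromosome 6 (28474001 to 28476400), had 195.56 in OTX2low and 368.55 in OTX2high in the authors' deposited table.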

How the data were processed

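ChIP-seq of H3K4me3 and H3K27me3 was available for OTX2low and OTX2high D283 cells, with 1 library per mark and condition. The submitters' processing notes name Bowtie2 2.3.3.1, GRCh38 and MACS2 2.1.1.20160309. Narrow peaks were called in each library against a single IgG library at a q-value of 0.05, per the file headers. The authors' peak lists give a pileup signal, −log10 p and q values and a fold enrichment ratio per peak.

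Differential regions were found with diffReps 1.55.6 by the authors, per the file headers, using a G-test at a p-value limit of 0.0001. Windows of 10000 bp in steps of 1000 bp served for H3K27me3, and 1000 bp in steps of 100 bp for H3K4me3. Their deposited columns hold normalized read signal, a ratio of ChIP over IgG, a log2 of OTX2high over OTX2low and an adjusted p-value. That p compares reads of a library pair, not conditions. Per the file headers the scan used chromosome sizes of an older build, so 2 domains at the end of chromosome 20 could not be touched. A read was worth about 0.8746 in OTX2low and 1.1434 in OTX2high, and 94.1% of OTX2low and 90.0% of OTX2high values came out whole (tolerance 0.05). Recovered read numbers are therefore approximate.

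Interval operations (Python 3.11.15, pandas 2.3.3, numpy 2.4.6) used a minimum overlap of 1 bp, and were checked against bedtools on simulated intervals. Coverage of a domain is the percent of its bases under peaks. Genes and promoters came from RefSeq GRCh38.p14. The 153 protein-coding genes on scaffolds were left out, and gene starts were taken from the promoter windows only. Shares have exact Clopper-Pearson intervals from scipy 1.17.1. Alternatives varied the joining gap, the length limit, the peak thresholds and the gene overlap.

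The domains and gene lists were chosen with earlier results of these data known. Named were the 10 longest domains, the 10 with the strongest peaks, 3 on each side of the length limit, those with the 5 differential regions of largest log2 in each direction with at least 100 normalized reads, and up to 6 genes per list by bases in domains. Other genes were named after their values were seen. With 1 library per condition, no test between conditions was run. IgG libraries were used only through the authors' lists and tables.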

Additional observations from a re-analysis of the deposited data

How the results depend on the processing

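Of 92 recomputed values, 51 stayed within 1.5 times (counts, lengths and covered bases) or within the 95% interval (shares), and none changed direction. Values below follow the order domains, median length, share overlapped by the other list, bases covered by it, genes, and shares touched by regions higher in OTX2low and OTX2high, where each moved. Joining across 1000 bp moved the share overlapped to 99.4%, all bases covered to 15.6% (7.11% in the report), and the touched shares to 41.2% and 0.566%. Joining across 5000 bp moved the share overlapped to 83.3% and the touched shares to 17.2% and 1.92%. A minimum length of 20000 bp gave 1195 domains of median length 32244 bp, 99.2% overlapped, 673 genes and 33.97% touched by regions higher in OTX2low. A minimum of 5000 bp gave 4665 domains of 11012 bp, 77.5% overlapped and 14.5% touched by regions higher in OTX2low. H3K27me3 peaks with −log10 q of at least 5 gave 98.8% overlapped, 13.2% of bases covered, and 36.2% and 0.403% touched. Letting only H3K4me3 peaks with −log10 q of at least 10 exclude a domain gave 24.3% touched by regions higher in OTX2low. Domains built from the shorter list numbered 1098, all of them overlapped by the longer list (100% of domains, 78.6% of bases), with 502 genes and 50.4% touched by regions higher in OTX2low. Domains covered to at least 50% numbered 789, with 99.6% overlapped, 12.0% of bases covered, 499 genes and 41.8% touched by regions higher in OTX2low. Moving away from H3K4me3 by 5000 bp, or leaving out chromosome X, moved none of these 7 values.

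Asking that 10% of a domain be covered lowered the share overlapped to 13.6%, and using only peaks of the shorter list with −log10 q of at least 5, chosen after seeing the data, to 38.1%. Whole gene bodies inside numbered 369. With at least 50% of the differential region inside, 0.434% of domains were touched by regions higher in OTX2high. At a CpG ratio limit of 0.75 the share of promoter windows was 4.65%, and without tandem families, chosen after seeing the data, 13.3% reached 0.6. Counting whole bodies gave 0 of the channel genes and 0 of the ZNF genes. With domains of at least 20000 bp, 5 channel genes, 27 olfactory receptor genes and 1 ZNF gene were touched. The cause of these moves was not tested.

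No paired analysis was possible because each condition has 1 library per mark and the domains were compared by counts. Leaving out a replicate was likewise not possible. Depth, peak width and fragment estimate differ between the H3K27me3 lists, so a stretch without a peak of the shorter list is not shown to lack the mark.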

Other observations

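The domains held 35 of 1558 listed miRNA hairpins. They included MIR208A and MIR208B, miRNAs of cardiac myosin genes, MIR675, which is processed from the imprinted H19 transcript, and MIR519A1, MIR522 and MIR527 of the placental cluster on chromosome 19. By RefSeq genes, 48 of 1911 miRNA genes (2.51%) touched the domains, a lower share than the 5.20% of protein-coding genes. Large domains with H3K4me3 were touched by 85 miRNA genes (4.45%). Of 17904 long noncoding RNA genes 822 (4.59%) touched the domains, close to the 5.20% of protein-coding genes, and of 429 transfer RNA genes 6 (1.40%) did, against 59 (13.8%) touching large domains with H3K4me3. Domains without H3K4me3 made up 88.6% of the large domains of chromosome X and 50.0% of those of chromosome 19. Chromosome 10 held 8.51% of the domains and 3.70% of protein-coding genes. It also held 6.33% of large domains with H3K4me3 and 6.86% of all joined domains.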
